A study of Homo sapiens with 4 samples.

Results

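The genes described here carry a ZNF symbol, the name given to human zinc finger proteins, and have at least 1 peak in the authors' deposited table of differential ac4C peaks. Members were all genes in that table whose symbol is ZNF followed by digits, with or without a suffix. The rule took 23 of 2483 genes, or 0.926%, and 25 of 2807 differential peaks. Of the 23 genes, 22 code for protein and 1, ZNF32-AS1, is an antisense RNA. FaDu, an established human line derived from a hypopharyngeal squamous carcinoma, was infected with lentivirus carrying a control shRNA (shNC) or an shRNA against NAT10 (shNAT10), and stable cells were selected with puromycin. The methods list more than 1 shRNA against NAT10, and which of them was used for sequencing is not given in the sources used here. Each of the 2 conditions had 1 immunoprecipitated library (IP) and 1 input library, which makes 4 libraries. There were no replicates, and no difference between conditions was tested.

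N4-acetylcytidine (ac4C) is an acetylated form of cytidine, and NAT10 is the acetyltransferase known to place it on RNA. In acRIP-seq, an antibody enriches the fragmented RNA for pieces bearing ac4C, the enriched reads are set against the input, and stretches where the IP exceeds the input are called peaks. Most ZNF genes code for proteins of the C2H2 class, in which cysteines and histidines hold a zinc ion and each finger reads a short stretch of DNA. Many of them also hold a KRAB domain, which recruits the co-repressor TRIM28 and through it the histone methyltransferase SETDB1. The symbol covers other proteins too, such as ZNF185, which binds actin and has a LIM domain.

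For each peak the authors' fold enrichment, a linear ratio of IP over input, and the p-value of the peak call are used. That p-value, called caller p here, sets the IP of 1 condition against its input, so it carries nothing of the variation between cultures and is no test between conditions. The tables hold peaks and not reads, so the depth of the libraries and the levels of the transcripts are unknown. A peak in bulk RNA does not tell fewer cells with the mark from less of the mark per cell, nor either from a transcript that is less abundant. On NAT10 itself the lists held 1 shNC peak with a fold enrichment of 6.91 and 1 shNAT10 peak with 12, and neither is a level that could check the knockdown. Of 11 squamous epithelial markers, 5 had a peak in either list (DSP, EGFR, PERP, SFN and TP63), and the keratins of the list had none under the names available here.

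Within the differential peaks, ZNF transcripts were more often listed in the control cells than after the NAT10 shRNA. Of the 25 peaks, 14 (56.0%) overlapped a listed shNC peak only, 5 (20%) overlapped a listed peak in both conditions, and 6 (24.0%) overlapped a listed shNAT10 peak only. Over all 2807 differential peaks these shares were 32.2%, 40.4% and 27.3%. The members were taken from a table of peaks that differ, so that they differ is how they were chosen, and the counts are a description of these libraries. By gene, 12 members had their differential peaks in shNC only, 5 in both and 6 in shNAT10 only. The shNC-only peaks include nested peaks of ZNF524 and the overlapping peaks of ZNF32 and ZNF32-AS1, so they are not all separate signals. Among 70 further ZNF genes without a differential peak, 23 had peaks in shNC only and 36 in shNAT10 only. All ZNF genes together had 63 shNC and 69 shNAT10 peaks, so the lean to shNC was seen in the members and not in the whole family.

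**Figure D1:**
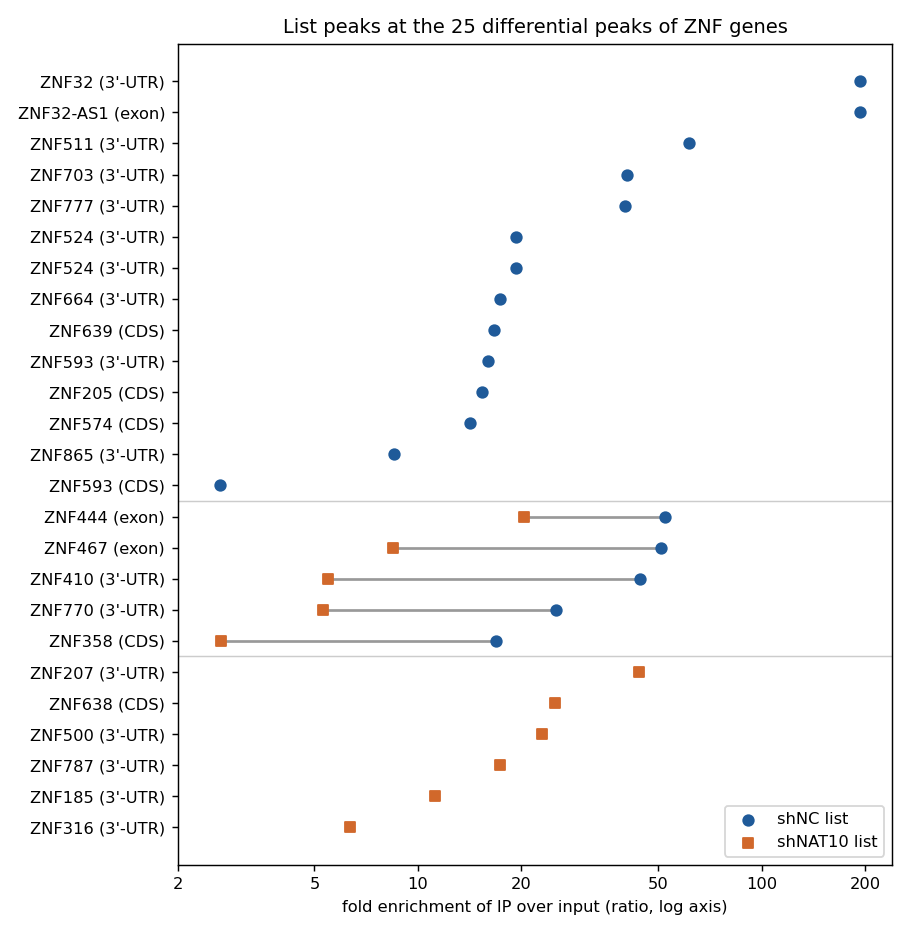
Fold enrichment of IP over input, a ratio on a log axis, of the listed peak at each of the 25 differential peaks of ZNF genes, with the region class beside the symbol. Circles are the shNC list and squares the shNAT10 list, a missing symbol means no listed peak there, and a line joins both values. All 5 joined peaks are lower in shNAT10, and the share of such peaks over all genes is not given. ZNF32 and ZNF32-AS1 stand highest at 194 and 193.

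The highest fold enrichments belonged to 1 locus that is transcribed from both strands. The differential peak of ZNF32 lay in its 3′UTR, at chr10:43643889-43644158 on the minus strand of GRCh38. It overlapped a shNC peak of the gene, at chr10:43643919-43644158, with a fold enrichment of 194 (caller p of 6.3e-63), and no shNAT10 peak. The antisense RNA ZNF32-AS1, at chr10:43643901-43644903 on the plus strand in 2 exonic blocks, had a shNC peak with 193 (caller p of 1.6e-62) and no shNAT10 peak. The ZNF32 differential peak shared 207 bases with the listed ZNF32-AS1 peak on the other strand, and the fold enrichments and p-values were nearly the same. Whether the reads were counted by strand is not given in the sources used here, so the signal cannot be assigned to 1 of the 2 transcripts. The ZNF32-AS1 peak began 29 bases past the start of that gene in RefSeq. The first 21 bases of the peak, chr10:43643901-43643921 in GRCh38.p14, are shown as each transcript would read them, from RefSeq, with cytidines, the base that NAT10 acetylates, in capitals.
ZNF32-AS1: tgggggaaaggaaaaaaatCa
ZNF32: tgatttttttCCtttCCCCCa
This stretch has 1 cytidine on the ZNF32-AS1 strand and 7 on the ZNF32 strand, and neither strand holds the spaced motif described below. It lies in the differential peaks of both genes, and the rest of these peaks was not read. Most of the stretch, with all 7 cytidines of the ZNF32 strand, lies outside the listed ZNF32 shNC peak that had 194. The cytidine counts therefore do not describe that listed peak.

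Beside ZNF32, the peaks found in shNC only had fold enrichments from 2.66 to 61.5. The highest of these was in the 3′UTR of ZNF511, at chr10:133312802-133313042, with 61.5 (caller p of 5.0e-29). The 3′UTR of ZNF703, a transcriptional co-repressor known as an oncogene of breast cancer, had a peak with 40.7 at chr8:37699812-37699961. The 3′UTR of ZNF777 had a peak with 40.1 (caller p of 2.5e-38) at chr7:149431513-149431902. These 3 peaks ended 119, 58 and 150 bases before the RefSeq end of their genes.

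Other 3′UTR peaks in shNC only were lower. ZNF524, which binds telomeric DNA, had 2 nested differential peaks in its 3′UTR, at chr19:55602957-55603136 and chr19:55602958-55603108, over 2 nested shNC list peaks with the same start and the same fold enrichment of 19.3. Both rows hold the same motif site, so they count the same stretch of RNA more than once, and counting it once left 13 differential peaks in shNC only and 25 shNC list peaks of members in place of 26. ZNF664 had a 3′UTR peak with 17.3 at chr12:124015170-124015409. The 3′UTR peak of ZNF865 at chr19:55616910-55617090 had 8.52 (caller p of 7.9e-21). Of these, ZNF524 had the weakest caller p, 4.9e-06.

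Coding sequence held 4 of the shNC-only peaks. ZNF639, a gene in a region often amplified in squamous carcinomas, had a peak with 16.6 (caller p of 3.5e-05) at chr3:179334330-179334480. ZNF205 had 15.4 (caller p of 7.9e-17) at chr16:3120159-3120398. ZNF574 had 14.2 (caller p of 2.0e-21) at chr19:42080951-42081190. ZNF593, related to a yeast factor of ribosome assembly, was the other member with more than 1 differential peak. Its coding peak, chr1:26170048-26170459 in 2 blocks, had the lowest fold enrichment of all members in shNC, 2.66, and its 3′UTR peak at chr1:26170607-26170843 had 16.0. The 3′UTR peak of ZNF593 shared 207 bases with a shNC peak of AL391650.1 on the other strand that had the same values, 16.0 and a caller p of 1.6e-32. The coding peak of ZNF593 shared 134 bases with another AL391650.1 peak, with 5.31.

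The 5 differential peaks listed in both conditions, each of another gene, were lower after the NAT10 shRNA. The peak of ZNF410, an activator of the chromatin remodeller gene CHD4, was in the 3′UTR at chr14:73931734-73932272 and had 44.2 in shNC and 5.49 in shNAT10, a ratio of 0.124. ZNF358, in coding sequence at chr19:7520666-7520936, had 16.9 and 2.68, a ratio of 0.159. For ZNF467, known from the choice between the adipocyte and osteoblast fates, the peak at chr7:149764241-149764628 had 51.1 and 8.45, a ratio of 0.165. The 3′UTR peak of ZNF770 at chr15:34978431-34978670 had 25.2 and 5.28, a ratio of 0.210. The peak of ZNF444, a SCAN domain factor, at chr19:56160385-56160833 had 52.5 and 20.3, a ratio of 0.387. Across genes the shNC values ran from 16.9 to 52.5 and the shNAT10 values from 2.68 to 20.3, and as differential peaks these 5 were selected by this contrast. How many of all 1135 differential peaks listed in both conditions were lower in shNAT10 is not given here. The shared direction of the 5 is therefore no trait particular to ZNF genes. The shNAT10 peak of ZNF467 was the only one of the members' listed peaks with a false discovery rate (FDR) above 0.05, at 0.085.

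In 2 other members, overlapping peaks outside the differential table went the other way. ZNF703 had a peak over the same bases in both lists, chr8:37699453-37699602, upstream of its differential peak, with 9.67 in shNC and 19.4 in shNAT10, a ratio of 2.01. ZNF638, a nuclear protein that silences retroviral DNA together with the HUSH complex, had overlapping peaks around chr2:71434769-71434979 with 6.91 in shNC and 21.1 in shNAT10, a ratio of 3.05. Over the 7 pairs of overlapping member peaks the median ratio was 0.210, with 5 pairs at least 2-fold lower and 2 at least 2-fold higher in shNAT10. Over all 3288 pairs of the lists the median ratio was 0.963, and 24.2% were at least 2-fold lower and 22.7% at least 2-fold higher. The members' median depends on the overlap rule. Where at least 50% of both peaks had to overlap, 4 pairs were left (ZNF358, ZNF638, ZNF703 and ZNF770) and their median was 1.11. Of these, ZNF358 and ZNF770 were lower and ZNF638 and ZNF703 higher in shNAT10, so this median lies between pairs of opposite direction. The ZNF410 pair shared 31 bases and the ZNF444 pair 61 bases. The ZNF467 pair also dropped out, although it shared 150 bases, because its shNC peak has 358 bases and its shNAT10 peak 180.

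The 6 peaks found in shNAT10 only had fold enrichments from 6.34 to 43.9. ZNF207 (BuGZ), a kinetochore and spindle factor that binds BUB3, had the highest, 43.9 (caller p of 2.0e-13), at chr17:32370131-32370431, classed as 3′UTR. The coding peak of ZNF638 at chr2:71431378-71433384, in 2 blocks, had 25.1 and the smallest p-value of this group, 3.2e-40. ZNF500 had 23.0 (caller p of 1.6e-30) at chr16:4750513-4750693. ZNF787 had 17.3 (caller p of 2.0e-12) at chr19:56087814-56087993. ZNF185, which binds actin, had 11.2 (caller p of 4.0e-12) at chrX:152972942-152973151. ZNF316 had 6.34 (caller p of 5.1e-05) at chr7:6655743-6655923. Of these peaks, 5 were in a 3′UTR, and they ended 330 to 11454 bases before the RefSeq end of the gene, with ZNF185 and ZNF787 nearest and ZNF207 farthest. The 9 member peaks of the 3′UTR in shNC only, which include the 2 nested peaks of ZNF524, ended 2 to 179 bases before it. The distances of both groups thus did not overlap. Among all differential 3′UTR peaks that could be placed, 52.2% of 510 in shNC only and 49.8% of 426 in shNAT10 only ended within 500 bases of the gene end. Among members, 9 of 9 and 2 of 5 did. That cut lies above both 179 and 330 bases, so these shares do not address the split among members. The split was noticed in the data and was not tested.

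A gene without an overlapping peak was not always a gene without a peak. Of the 23 members, 10 had peaks in both lists, 10 in the shNC list only and 3 in the shNAT10 list only (ZNF185, ZNF316 and ZNF500), or 43.5%, 43.5% and 13%. Of all 6723 genes with a listed peak, 48.2% were in both lists, 25.8% in shNC only and 26% in shNAT10 only. ZNF207 had a shNC peak with 2.76 that ended 89 bases before its shNAT10 peak began, and a further shNAT10 peak with 16.9. ZNF787 had a shNC peak with 3.54 at a gap of 178 bases from its shNAT10 peak. ZNF574 had a shNAT10 peak with 10.1 at a gap of 717 bases from its shNC peak. In ZNF703 the shNAT10 peak lay 179 bases from the differential shNC peak. ZNF638 had a further stretch, a shNC peak with 4.83 at a gap of 2657 bases from the differential peak. ZNF467 had a second shNAT10 peak with 19.4 at a gap of 58 bases, ZNF770 a second shNC peak with 10.4 at a gap of 88 bases, and ZNF664 a second shNC peak with 4.92. Gaps are genomic and can include introns.

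**Figure D2:**
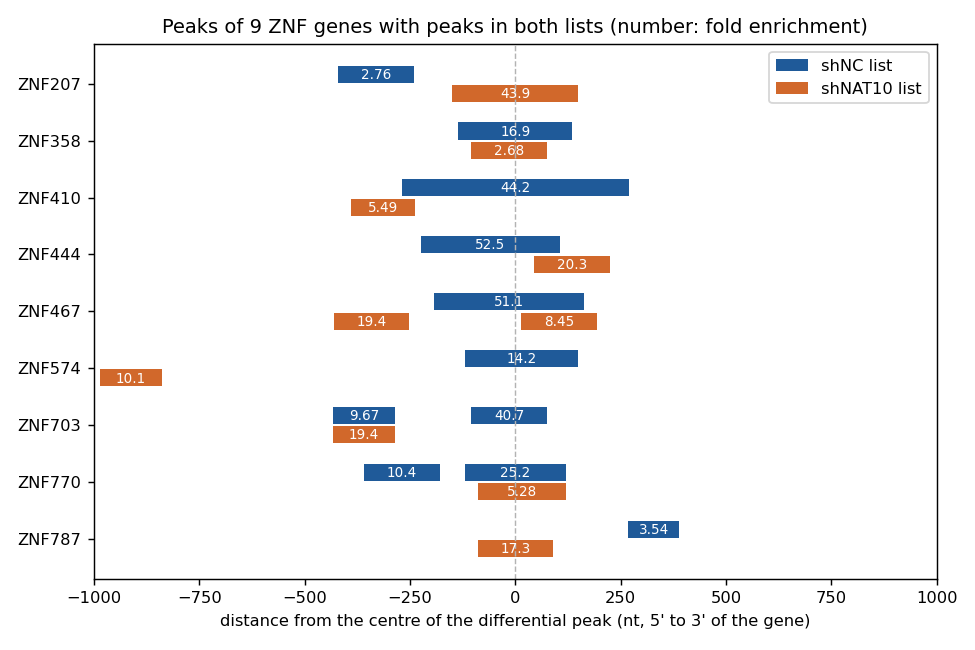
Listed peaks of 9 of the 10 ZNF genes with peaks in both lists, by distance in nt from the centre of the differential peak along the gene, with the shNC list above, the shNAT10 list below and the fold enrichment in each bar. ZNF638 and the distal shNAT10 peak of ZNF207 lie outside the range drawn; in ZNF207, ZNF574 and ZNF787 the peaks of both lists do not touch, and in ZNF703 only the upstream peak is in both.

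In the shNC list the members had 26 peaks with a median fold enrichment of 16.8 (range 2.66 to 194), and in the shNAT10 list 16 peaks with a median of 17.1 (range 2.68 to 43.9). Over all peaks the median was 12.4 in both lists, of 6403 shNC and 6417 shNAT10 peaks. Of the shNC peaks of members, 7 of 26 overlapped a shNAT10 peak (26.9%, 95% Wilson interval 13.7 to 46.1) and 19 did not, against 48.3% of all shNC peaks that did not. Of the shNAT10 peaks, 7 of 16 overlapped a shNC peak (43.8%, 23.1 to 66.8) and 9 did not, against 48.5% of all shNAT10 peaks that did not. These intervals cover the sampling of peaks and no variation between cultures. Since the members have a differential peak by the rule, a low overlap is in part how they were chosen.

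The rest of the family was therefore described beside them. Only 72.8% of identifiers lay in a single RefSeq gene, so further ZNF genes may be missing. By position in RefSeq, 70 further ZNF genes without a differential peak were found in the lists, 11 of them in both (15.7%), 23 in shNC only (32.9%) and 36 in shNAT10 only (51.4%), against the 48.2%, 25.8% and 26% of all genes. Their peaks overlapped a peak of the other list in 9 of 37 cases in shNC (24.3%, 95% Wilson interval 13.4 to 40.1) and in 8 of 53 cases in shNAT10 (15.1%, 7.85 to 27.1). These were weak peaks. Their median p-value was 4.00e-04 in shNC and 3.90e-04 in shNAT10, against 7.90e-11 and 5.10e-10 over all peaks, and their median fold enrichment was 8.98 and 11. Of these peaks, 75.7% in shNC and 56.6% in shNAT10 belonged to the weakest of 4 equal groups of all peaks by p-value, and in that group 18.7% and 19.4% of all peaks overlapped the other list. Of the further ZNF peaks in that group, 2 of 28 in shNC (7.14%) and 1 of 30 in shNAT10 (3.33%) did. In the middle groups of shNC, from stronger to weaker, 3 of 4 and 4 of 5 further ZNF peaks did, against 61.1% and 35.4% of all peaks. In the same groups of shNAT10, 2 of 3 and 5 of 20 did, against 58.9% and 35.4%. None of the further ZNF peaks was in the strongest group. The members' median p-value was 2.52e-14 in shNC and 3.40e-06 in shNAT10, smaller than that of the further ZNF genes in both lists. In shNAT10 it was weaker than the 5.10e-10 over all peaks. Members were chosen by having a differential peak, so their difference from the further genes is no separate result.

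**Figure D3:**
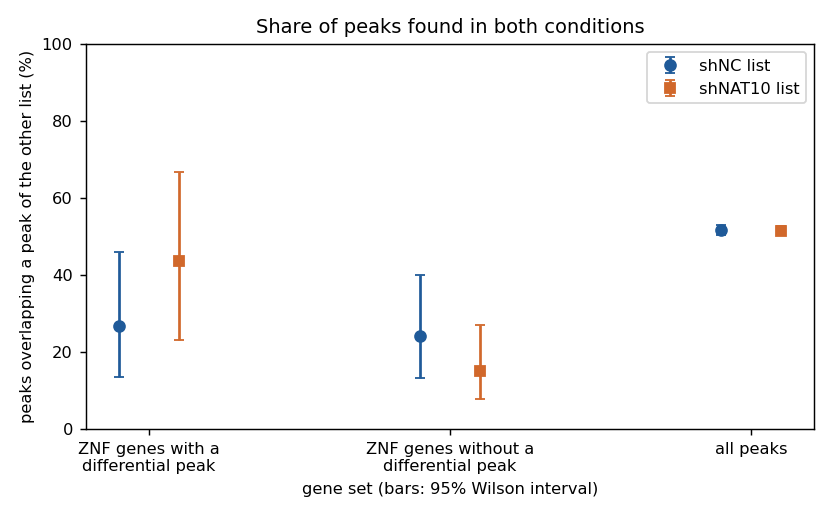
Share of peaks, in percent, that overlap a peak of the other list by at least 1 base on the same strand, for ZNF genes with a differential peak, further ZNF genes without one, and all peaks; bars are 95% Wilson intervals over peaks. Both ZNF sets lie between 15.1% and 43.8%, and all peaks lie at 51.7% in shNC (circles) and 51.5% in shNAT10 (squares).

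Many listed values recur at unrelated places. The shNAT10 peaks of ZNF467 and ZNF703 with a fold enrichment of 19.4 both had a caller p of 6.9e-06, and each pair of values was found at 44 other shNAT10 peaks that it did not overlap. The weakest ZNF467 peak, 8.45 with a caller p of 0.011, shared its values with 109 other shNAT10 peaks, and the ZNF703 shNC peak with 9.67 shared them with 92 other shNC peaks. At members, 8 of 26 shNC peaks (30.8%) and 10 of 16 shNAT10 peaks (62.5%) had values found again elsewhere, against 45.1% and 47.1% of all peaks. The 4 highest shNC peaks of members, those of ZNF32, ZNF32-AS1, ZNF511 and ZNF444, had values found at no other place. Of the 6 differential peaks in shNAT10 only, the values of ZNF207 alone recurred, at 3 other peaks.

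The differential peaks of ZNF genes lay mostly toward the 3′ end of the transcripts, as differential peaks in general did. The authors' region class was 3′UTR for 16 of 25 (64.0%, 95% Wilson interval 44.5 to 79.8), coding sequence for 6 (24.0%) and exon for 3 (12%). Over all differential peaks these classes made up 56.1%, 19.4% and 23.7%. No member peak was classed as 5′UTR, 0 of 25, which allows a share of up to 12%, and 0.677% of all differential peaks were. Of the 16 peaks in a 3′UTR, 13 ended within 500 bases of the RefSeq end of the gene, with a median of 134 bases and a range of 2 to 11454. Over all differential 3′UTR peaks that could be placed, 52.2% of 510 in shNC only did. The share was 68.5% of 514 in both and 49.8% of 426 in shNAT10 only. The peaks of ZNF444 and ZNF467, classed as exon, ended 60 and 59 bases before it. Chromosome 19, which holds the large clusters of human C2H2 genes, carried 6 of the 23 members (ZNF358, ZNF444, ZNF524, ZNF574, ZNF787 and ZNF865) and 7 of the 25 peaks (28.0%), against 11.3% of all differential peaks.

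The authors' table lists, for each differential peak, the sites of a motif of cytidines spaced by a pair of free bases, CXXCXXCXXCXX, where X is any base. At least 1 site was listed in 15 of 25 member peaks (60.0%, 95% Wilson interval 40.7 to 76.6), and in 60.9% of all differential peaks. The number of sites per peak ranged from 0 to 7. ZNF574 had 7, ZNF205 and ZNF777 had 6 each, and ZNF444 and ZNF467 had 5 each, so that 5 of 25 peaks (20%, 8.86 to 39.1) held 5 or more, against 7.66% of all. In total 51 sites lay in 6321 exonic bases of member peaks, 0.807 per 100 bases, against 0.490 per 100 bases of all differential peaks. Densities count only sites inside exonic blocks. These were all 51 listed sites of members but 4021 of 4356 over all differential peaks, and 839 of 991 in their coding peaks. Counting every listed site would thus raise only the values over all differential peaks. The density was 1.48 per 100 bases in the coding peaks of members, 0.911 in exon peaks and 0.542 in 3′UTR peaks, and 0.528, 0.548 and 0.444 over all differential peaks. The coding peaks of ZNF574, ZNF205 and ZNF593 had 2.92, 2.5 and 2.25 sites per 100 bases, that of ZNF358 0.738, that of ZNF638 0.369, and that of ZNF639 none. Of the member peaks in shNC only, 9 of 14 held a site (64.3%), of those in both 3 of 5 (60.0%) and of those in shNAT10 only 3 of 6 (50%). Over all differential peaks these shares were 52.3%, 73.7% and 52.2%.

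**Figure D4:**
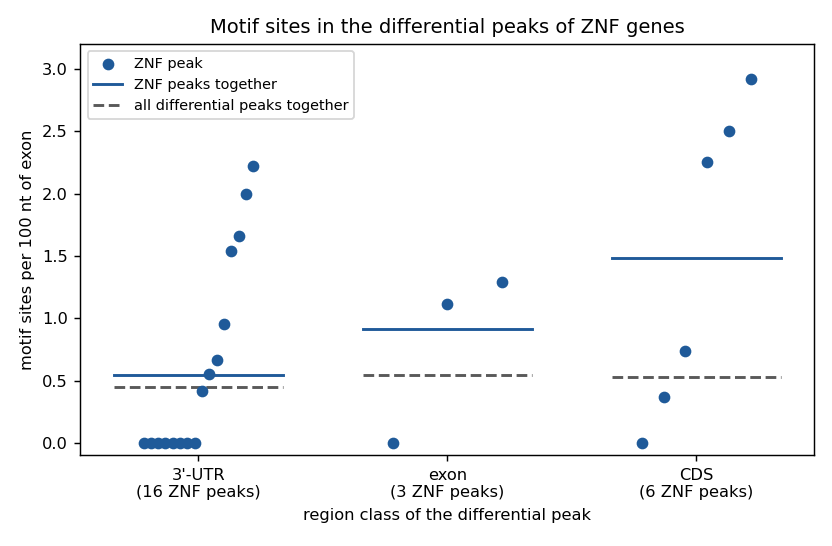
Listed CXXCXXCXXCXX sites inside exonic blocks, per 100 nt of exonic sequence, in each differential peak of a ZNF gene (points), by region class. Lines give the density over the ZNF peaks of the class (solid) and over all differential peaks of the class (dashed). The coding peaks of ZNF574, ZNF205 and ZNF593 stand at 2.92, 2.5 and 2.25, and 8 of the 16 3′UTR peaks have no site.

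Some member peaks share their bases with a peak of another gene. This held for 6 of the 25 differential peaks of members, in 5 genes: ZNF32, ZNF32-AS1, ZNF410, ZNF593 and ZNF770. It held for 493 of all 2807 differential peaks. The ZNF410 peak lay under shNC peaks of AC005520.1 on the same strand and of FAM161B on the other, both with the same fold enrichment of 44.2. The ZNF770 peak lay under peaks of AC114546.3 on the other strand, with 25.2 in shNC and 5.28 in shNAT10, the same values as its own. Without these 6 peaks, 10 remained in shNC only, 3 in both and 6 in shNAT10 only.

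The partners through which KRAB zinc finger proteins silence chromatin were looked at as a list of 24 genes. Of these, 16 had a peak in either list and 9 had a differential peak, 14 peaks in all. Genes without a differential peak were named by position only, which placed 72.8% of identifiers, so the 16 may be too low. Over all genes, 6723 had a listed peak and 2483 a differential peak. Of the 14 peaks, 4 (28.6%) were in shNC only, 6 (42.9%) in both and 4 (28.6%) in shNAT10 only. These shares were close to the 32.2%, 40.4% and 27.3% of all differential peaks. TRIM28, the direct partner of the KRAB domain, had a coding peak in shNC only with a fold enrichment of 20.2 and another coding peak with 12.5 in shNC and 8.78 in shNAT10. The methyltransferase gene SETDB1 had a peak in shNAT10 only, with 7.61. The heterochromatin protein gene CBX1 had one in shNC only, with 16.2. Among subunits of the NuRD deacetylase complex, the highest peak of CHD3 in both lists had 70.4 and 13.3, that of RBBP7 had 93.2 and 8.93, and that of MTA2 had 34.4 and 10.7, whereas MTA1 had peaks with 39.5 and 33.8 in shNAT10 only. DAXX, a histone chaperone, had 44.5 and 4.56 in its 3′UTR. UHRF1, which binds hemimethylated DNA, had 31.3 in shNAT10 only. The 6 differential peaks in both were lower in shNAT10, but they were selected by the contrast, and the share of lower ones over all such peaks is not given here. Differential or not, the list had 12 pairs of overlapping peaks in 9 genes, 9 lower and 3 higher in shNAT10, with a median ratio of 0.638. Over all 3288 pairs of the lists, 51.6% were lower and the median ratio was 0.963. The lower pairs are not all separate, since the shNAT10 peak of TRIM28 with 8.78 was paired with shNC peaks of 12.5 and 12.3. The 3 higher pairs were those of PPHLN1, a HUSH subunit (15.2 and 57.5), CHD4 (5.97 and 13.5) and RBBP4 (28.1 and 46.8), and none of them is in the differential table.

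Other families of C2H2 proteins (ZBTB, ZSCAN, ZKSCAN, ZFP, KLF and SP) had a peak in 19 of 101 genes and a differential peak in 3. The 19 may be too low for the same reason of naming by position. Over all genes, 6723 had a listed peak and 2483 a differential peak. Of the 4 differential peaks of these families, 0 were in shNC only, 1 in both and 3 in shNAT10 only. Over all differential peaks these shares were 32.2%, 40.4% and 27.3%, and 4 peaks are too few to describe the families. KLF6, an early response factor, had 2 peaks in its 3′UTR in shNAT10 only, with 22.8 and 28.7. ZBTB48, which binds telomeres, had a peak with 73.1 in shNAT10 only. The peak of SP1, a general activator of GC-rich promoters, had 21.6 in shNC and 7.08 in shNAT10.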

How the data were processed

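FaDu cells with shNC or shNAT10 were profiled for ac4C by acRIP-seq, with 1 IP and 1 input library each. RNA was broken into fragments, pulled down with an ac4C antibody and sequenced by a company. Per the submitters' processing notes, tools included cutadapt 2.5, HISAT2 2.1.0, HOMER 4.10.4 and featureCounts 1.6.3; the peak caller, its thresholds and the scaling between libraries are not given in the sources used here. The deposited lists give the authors' fold enrichment, a linear ratio of IP over input, the authors' p-value of each peak and its FDR as a log10 value. For each differential peak, the deposited table by the authors gives region class, symbol, a pooled fold enrichment and the positions and count of motif sites. Its 3 columns on the difference between conditions (fold change, p-value and FDR) are the authors' own comparison and were not used. Lists were tied to conditions by the prefix they share with the labels.

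Peaks overlapped where exonic blocks shared at least 1 base on the same strand; positions are GRCh38, counted from 1. A ratio was called at 2-fold. Genes without a symbol were named where they lay in a single RefSeq gene on their strand (4897 of 6723 identifiers, 72.8%); where both names existed, 1759 of 1825 (96.4%) were the same or a synonym. Fold enrichment of a member came from its own listed peak with the longest overlap. Sites per peak were counted as listed, and densities used only the listed sites inside exonic blocks. Proteins were not analysed here, and of the peak sequences only the stretch at ZNF32 inside a RefSeq promoter window was read. The members and lists were chosen with earlier results of these data known. The naming rule took members with several peaks or peaks in both lists, the 5 highest and 5 lowest fold enrichments per list, the 5 peaks with the most motif sites, coding peaks, suffixed symbols and known roles; the few others were named to account for all members. To check the overlap code, 3179 of the 6403 shNC peaks had their first block shifted by less than its length. The rest were moved to a made-up chromosome. All 3179 planted overlaps were found, an outcome fixed by the setting that bears on the code alone. Alternatives are given in the closing section. Python 3.11.15, numpy 2.4.6, pandas 2.3.3 and matplotlib 3.10.9 were used.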

Additional observations from a re-analysis of the deposited data

How the results depend on the processing

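Of 46 alternatives to the values above, 36 stayed within the range set for no change, 9 moved and 1 turned direction. That range was the Wilson interval for shares, a factor of 1.5 for counts, the interquartile range for median fold enrichments, and a factor of the square root of 2 for the median ratio, the last set by choice because no replicates exist. The median ratio of overlapping pairs went from 0.210 to 1.11 where 50% of each peak had to be covered, because 3 of the 7 pairs, all lower in shNAT10, dropped out, and to 0.298 with an FDR of at most 0.05 in both lists, where 6 pairs remained. With an FDR of at most 1e-10 the overlapping share was 0 of 16 in shNC, which allows up to 18.8%, and 0 of 5 in shNAT10, which allows up to 60.0%. The limit applied to both lists. The 7 overlapping shNAT10 peaks of members had an FDR from 2.6e-05 to 0.085, so no overlapping pair could remain. The share of all peaks at this limit is not given here, so the 0 says nothing particular to the members. With genes in place of peaks, where any peak of the gene counts, the shares were 50% and 76.9%, against 65.1% and 65.0% over all genes, and 10 genes had peaks in both lists and 3 in shNAT10 only. Peaks in both lists numbered 2 with the overlap of at least 50% and 3 without peaks that lie on a peak of another gene; the cause of the other moves was not tested. The count of fingers and KRAB domains in the proteins was not run. The strand rule, the naming by position, the single count of ZNF524 and the removal of antisense partners were chosen after seeing the data. Depth is unknown, and values that recur at unrelated peaks limit what the weaker shNAT10 peaks can show. No paired analysis was possible because both conditions lack replicates.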
